A study of Mus musculus with 3 samples.

Results

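The phagocyte NADPH oxidase was examined through 5 genes, Cybb, Cyba, Ncf1, Ncf4 and Rac2, out of 22238 genes measured in all 3 libraries. They were taken from a list of known subunits of the oxidase, and earlier results of these data were known when they were chosen. The study sequenced poly(A) RNA of sorted myeloid cells from mice with experimental autoimmune encephalomyelitis (EAE), a model of multiple sclerosis, to ask how monocytes change as they move from marrow into the inflamed spinal cord and become antigen-presenting cells there. Wild-type C57BL/6J female mice, 10 to 12 weeks old, received myelin oligodendrocyte glycoprotein peptide in complete Freund's adjuvant, with 250 ng of pertussis toxin at 2 and 24 h, and cells were taken at days 14 to 15. BM-monocytes were CD45+ CD11b+ Ly6Chi Ly6G- CD11c- bone marrow cells of 13 mice, pooled over 2 experiments. SC-monocytes (CD45+ CD11b+ CD64+ Ly6Chi Ly6G-) and SC-APC (CD45+ CD11b+ CD64+ Ly6Clow/- Ly6G-) came from the spinal cords of 18 mice, pooled over 3 experiments. Every mouse had been immunized, so the comparisons set tissues and gates against each other within EAE, and no library of unimmunized mice was analysed here. Marrow and cord cells also differed in how they were prepared, since the cord was digested with collagenase and the marrow was enriched for monocytes, and these steps cannot be told apart from the tissue. One label of the SC-APC library names bone marrow as its source, whereas its title, its tissue label and the series design name the spinal cord, which was followed here.

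Phagocytes use this oxidase to pass electrons from NADPH across a membrane to oxygen, which makes superoxide, the starting point of the oxidative burst that kills microbes. The catalytic core is a membrane pair, gp91phox (Cybb) and p22phox (Cyba), and it is silent until cytosolic proteins, p47phox (Ncf1) and p40phox (Ncf4) among them, and a Rac GTPase (Rac2 or Rac1) move to it. Loss of the membrane pair or of p47phox in people causes chronic granulomatous disease, and in EAE the oxidants of infiltrating myeloid cells have been studied as a source of tissue injury.

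The 3 libraries held 33280643 (BM-monocytes), 27283795 (SC-monocytes) and 28209589 (SC-APC) estimated reads. Levels are given as TPM, a share of all transcripts corrected for length, which was rescaled to the same sum over the common genes, with a 95% Wilson interval. Fold changes are differences of log2 reads after median-of-ratios scaling, with a 98% interval. A gene was called where this whole interval lay beyond a 2-fold change and its TPM was over 3 in at least 1 of both libraries. SC-monocytes against BM-monocytes is named the first step and SC-APC against SC-monocytes the second, as names only and not as a lineage shown here. With 1 library per population there was no replicate check and no test, and both kinds of interval cover counting error only. They treat reads as independent, whereas copies made by PCR are not independent molecules, so they may be too narrow even for counting error. In pooled bulk RNA, fewer cells of a type and less RNA per cell cannot be told apart. The SC-APC library was quantified on a smaller transcript set (22242 genes against 54432), so effective gene lengths, and with them TPM, differ in kind between SC-APC and both monocyte libraries. Estimated reads were assigned within these sets too. The common genes held 32115707 (BM-monocytes), 26116588 (SC-monocytes) and 28209327 (SC-APC) rounded reads, nearly all of them only in SC-APC. Fold changes on reads that involve SC-APC are therefore not free of this difference, whose size was not tested.

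The promoters of 3 of the 5 genes were found in the RefSeq promoter table for GRCm38.p6, and they are shown because they differ in the short motifs of factors known to act at oxidase genes. Each run reads 5′ to 3′ on the gene's strand, from 250 bases before to 50 bases after the annotated start, and capitals mark matches on either strand to GAGGAA (the core of the PU.1 motif), to TTCNNNGAA (the STAT motif), or to the IRF motif, GAAA, then a pair of any bases, then GAAA. The windows are chrX:9469275-9469574 (Cybb), chr8:122432891-122433190 (Cyba) and chr5:134229576-134229875 (Ncf1), all on the minus strand. Starts are those of the RefSeq table. The Cybb window lies inside the GENCODE gene (9435252 to 9487771), so its start is not the outer end of that gene.
Cybb: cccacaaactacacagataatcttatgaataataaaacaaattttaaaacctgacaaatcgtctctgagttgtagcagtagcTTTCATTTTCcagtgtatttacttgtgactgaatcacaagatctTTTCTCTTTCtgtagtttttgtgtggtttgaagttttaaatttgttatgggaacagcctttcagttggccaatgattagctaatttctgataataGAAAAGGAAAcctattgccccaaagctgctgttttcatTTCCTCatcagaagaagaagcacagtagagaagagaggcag
Cyba: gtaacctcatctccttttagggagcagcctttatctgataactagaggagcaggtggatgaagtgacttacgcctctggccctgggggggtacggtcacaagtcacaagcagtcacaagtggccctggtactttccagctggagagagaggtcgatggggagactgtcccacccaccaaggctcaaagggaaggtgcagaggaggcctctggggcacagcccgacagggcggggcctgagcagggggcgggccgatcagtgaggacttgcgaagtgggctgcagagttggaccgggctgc
Ncf1: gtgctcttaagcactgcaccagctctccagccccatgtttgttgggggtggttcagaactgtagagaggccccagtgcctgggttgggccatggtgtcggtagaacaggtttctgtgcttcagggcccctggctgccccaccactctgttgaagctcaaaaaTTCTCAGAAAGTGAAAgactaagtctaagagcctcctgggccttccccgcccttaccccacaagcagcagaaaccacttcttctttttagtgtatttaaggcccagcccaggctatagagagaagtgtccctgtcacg

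The Cybb window held 3 IRF matches, whose first bases lie at positions -168, -124 and -29 from the start, and a PU.1 match at position 10 on the opposite strand. It was poor in G and C, at 35.3%, with 1 CpG, against a median of 52.7% and 7 CpG over the 32851 promoters of the table. The Ncf1 window held a STAT match at -88 that overlaps an IRF match at -82, with 54.0% GC and 3 CpG. The Cyba window held none of the 3 motifs and was the richest of the set in GC, at 60.7% with 9 CpG. Among all promoters of the table, 28.3% held the PU.1 letters, 8.3% the STAT letters and 3.44% the IRF letters. These matches describe letters only, and no binding was measured.

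All 5 genes were active in all 3 libraries, at ranks between 113 and 1037 of the 22238 genes by TPM. They did not move as a unit. Between BM-monocytes and SC-monocytes, Rac2 fell 2.16-fold and Cybb was 1.74-fold lower without passing the 2-fold threshold, whereas Cyba was 1.44-fold higher. Between SC-monocytes and SC-APC the largest difference among the 5 was that of Ncf4, which was 1.63-fold lower, also short of the threshold.

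**Figure D1:**
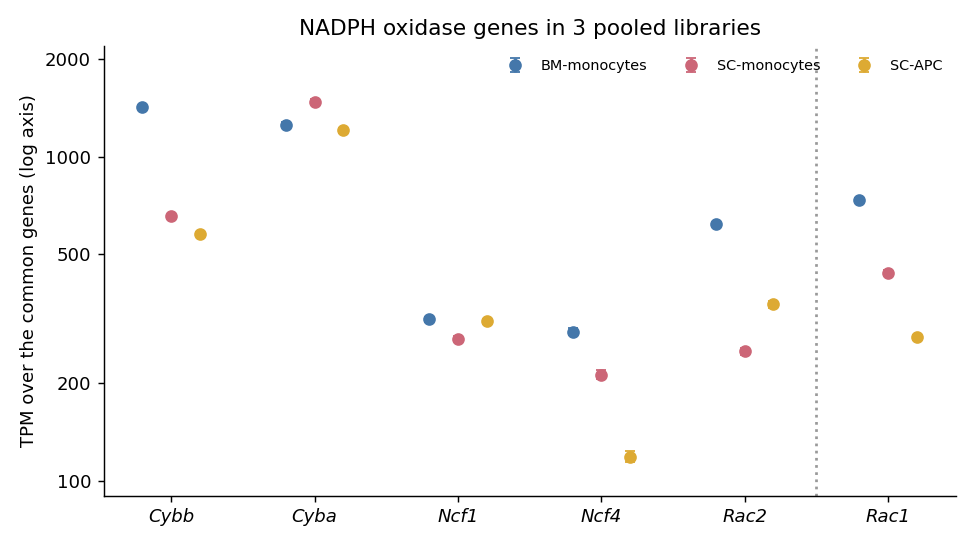
TPM over the common genes (log axis) of the 5 oxidase genes in the 3 pooled libraries, with Rac1 to the right of the dotted line; bars are 95% Wilson intervals of counting error and are mostly smaller than the points. Cybb is highest in BM-monocytes (1425 TPM), Cyba lies between 1210 and 1482 TPM, and Ncf4 is lowest in SC-APC (119 TPM).

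Cybb encodes gp91phox, the flavocytochrome subunit that carries the electrons. The gene (ENSMUSG00000015340.10) spans 9435252 to 9487771 on chromosome X of GRCm38, minus strand, and its longest transcript has 13 exons and 570 codons. Cybb stood at 1425 TPM (1417 to 1434) in BM-monocytes, 657 TPM (651 to 663) in SC-monocytes and 579 TPM (575 to 584) in SC-APC, from 116215, 47831 and 54386 reads. It was thus the most abundant of the 5 genes in marrow, at rank 118, and stood at ranks 267 and 260 in the cord libraries. Its log2 fold change was -0.80 (-0.82 to -0.78) between BM-monocytes and SC-monocytes, and 19.4% of active genes had a lower value. In SC-APC against SC-monocytes it was 0.03 (0.01 to 0.05) on reads, and it became -0.10 per effective length and -0.18 as a ratio of TPM. The sign of this last difference therefore depends on the transcript set, which gave Cybb an effective length of 4502 bases in SC-APC against 3758 in SC-monocytes. As the TPM ratio between both monocyte libraries was -1.12, past a plain 2-fold change, the side of the threshold on which Cybb lies depends on the scale.

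Cyba encodes p22phox, the smaller membrane subunit that stabilizes gp91phox and docks p47phox. The gene (ENSMUSG00000006519.11, chromosome 8, 122424776 to 122432930, minus strand) has a main transcript of 6 exons and 192 codons. Its level was 1256 TPM (1234 to 1277) in BM-monocytes, 1482 TPM (1457 to 1507) in SC-monocytes and 1210 TPM (1189 to 1231) in SC-APC, from 12990, 13422 and 12432 reads. Cyba was the most abundant of the 5 genes in both cord libraries and kept nearly the same rank throughout, 137, 113 and 125. The log2 fold change was 0.53 (0.49 to 0.57) from BM-monocytes to SC-monocytes and -0.27 (-0.31 to -0.23) from SC-monocytes to SC-APC. Between SC-APC and BM-monocytes it was 0.26 on reads but -0.054 as a TPM ratio, so no direction is given for that pair. Cyba lies within Gm20388, a long gene on the opposite strand with 1360, 490 and 595 reads in the same order of libraries. Whether reads were assigned by strand is not given in the sources used here, and a part of each gene's reads could belong to the other.

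The balance of the membrane pair differed between the marrow and cord libraries. Per length, there were 0.881 Cyba transcripts for each Cybb transcript in BM-monocytes (98% interval 0.862 to 0.900), 2.26 in SC-monocytes (2.21 to 2.31) and 2.09 in SC-APC (2.04 to 2.14). Cybb led in marrow and Cyba led in the cord. The intervals cover counting error only and are narrow at these read counts. The ratio of reads, which leaves the lengths uncorrected, moved the same way, at 0.112, 0.281 and 0.229.

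Ncf1 encodes p47phox, the organizer that is phosphorylated to start assembly. The gene (ENSMUSG00000015950.13) lies at 134220053 to 134229625 on chromosome 5, minus strand, and the longest of its coding sequences has 404 codons. Its level was 315 TPM (310 to 320) in BM-monocytes, 275 TPM (270 to 279) in SC-monocytes and 311 TPM (306 to 316) in SC-APC, from 16408, 12551 and 14879 reads. Ncf1 was the steadiest of the 5 genes on reads, with log2 fold changes of 0.095 (0.06 to 0.14) and 0.089 (0.05 to 0.13) in the first and the second step. Its sign in the first step turned to -0.20 as a TPM ratio and to -0.088 when scaled by total reads, so no direction is given for it. Its end overlaps Gtf2ird2 on the opposite strand, a gene with 195, 127 and 163 reads.

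Ncf4 encodes p40phox, which binds a phosphoinositide of the phagosome membrane. The gene (ENSMUSG00000071715.12, chromosome 15, 78244801 to 78262580, plus strand) has a main transcript of 10 exons and 339 codons. Its level was 289 TPM (282 to 296) in BM-monocytes, 212 TPM (206 to 219) in SC-monocytes and 119 TPM (114 to 123) in SC-APC, from 6598, 3965 and 2705 reads. Ncf4 was the lowest of the 5 genes in each library. The TPM intervals of Ncf4 cover counting error only and are narrow at these read counts. Its log2 fold change was -0.25 (-0.32 to -0.19) in the first step and -0.71 (-0.79 to -0.62) in the second, where 6.68% of active genes had a lower value. SC-APC against BM-monocytes gave -0.96 (-1.04 to -0.88), a 1.95-fold difference that was not called because its interval lay across a 2-fold change. On the TPM ratio this pair gave -1.28.

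Ncf4 was lowest in SC-APC, while Ncf1 was not. The ratio of Ncf1 to Ncf4 per length was 1.09 (98% interval 1.06 to 1.13) in BM-monocytes, 1.29 (1.24 to 1.35) in SC-monocytes and 2.62 (2.49 to 2.75) in SC-APC. These intervals, too, cover counting error only. On reads this ratio was 2.49, 3.17 and 5.50, so its order over the libraries was the same.

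**Figure D2:**
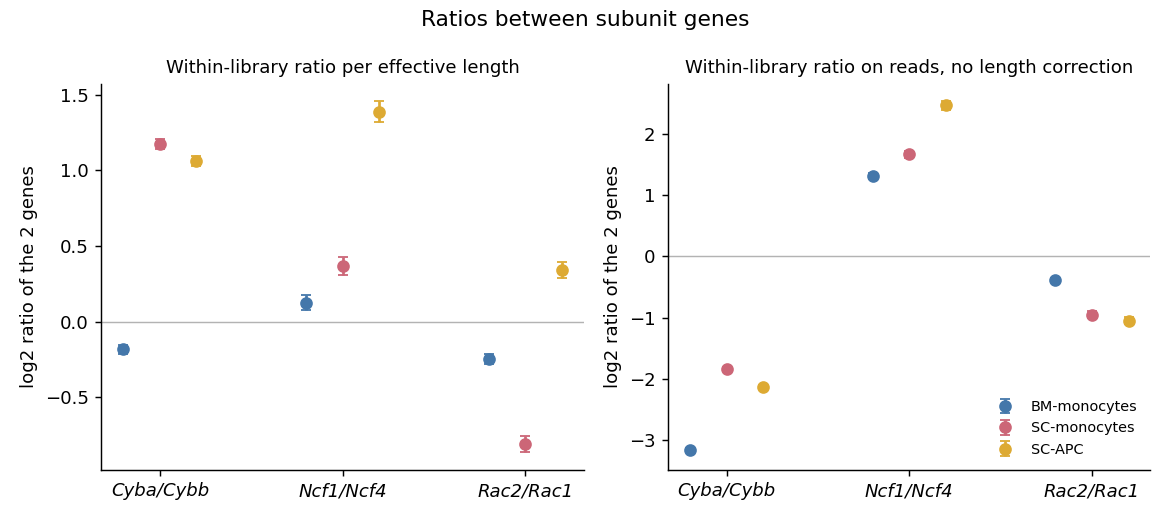
Log2 ratio of a pair of subunit genes within each library, per effective length (left, with 98% intervals of counting error) and on reads (right), for Cyba to Cybb, Ncf1 to Ncf4 and Rac2 to Rac1. The ratio of Cyba to Cybb is higher in both cord libraries (2.26 and 2.09 per length) than in BM-monocytes (0.881), and that of Ncf1 to Ncf4 is highest in SC-APC (2.62).

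Rac2 encodes the GTPase of blood cells that switches the assembled oxidase on. The gene (ENSMUSG00000033220.7) lies at 78559167 to 78572783 on chromosome 15, minus strand, with 7 exons and 192 codons in its longest coding transcript. Its level was 622 TPM (613 to 631) in BM-monocytes, 251 TPM (245 to 258) in SC-monocytes and 351 TPM (342 to 360) in SC-APC, from 17420, 5778 and 6051 reads. Rac2 was highest in marrow on reads, per effective length and by TPM. It fell by 1.11 on the log2 scale (-1.16 to -1.06) in SC-monocytes, with 12.3% of active genes lower, and by 1.20 (-1.25 to -1.15) in SC-APC against BM-monocytes, and both were called. Both calls were lost when an assumed coefficient of variation of 0.2 between libraries was added to the interval. The second was also lost per effective length, where the value was -0.50, and with a TPM ratio of -0.83. Between SC-monocytes and SC-APC the value was -0.09 (-0.15 to -0.03) on reads but 0.56 per effective length and 0.48 as a TPM ratio. The gene's effective length was 828 bases in SC-APC against 1187 in SC-monocytes and 1311 in BM-monocytes, and its protein-coding transcripts of 3038 and 254 bases differ widely in length. No direction is therefore given for Rac2 between both cord libraries.

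Rac1, the GTPase present in most cell types that can take the place of Rac2, stood at 737, 439 and 277 TPM in the 3 libraries, with log2 fold changes of -0.55 and 0.0091 in the first and the second step. Neither was called. The ratio of Rac2 to Rac1 was 0.844, 0.572 and 1.27 per length in BM-monocytes, SC-monocytes and SC-APC, but 0.765, 0.517 and 0.483 on reads. In SC-APC the order of the pair turned with the length correction, as the effective length of Rac1 there was 2170 bases against 1312 in SC-monocytes.

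**Figure D3:**
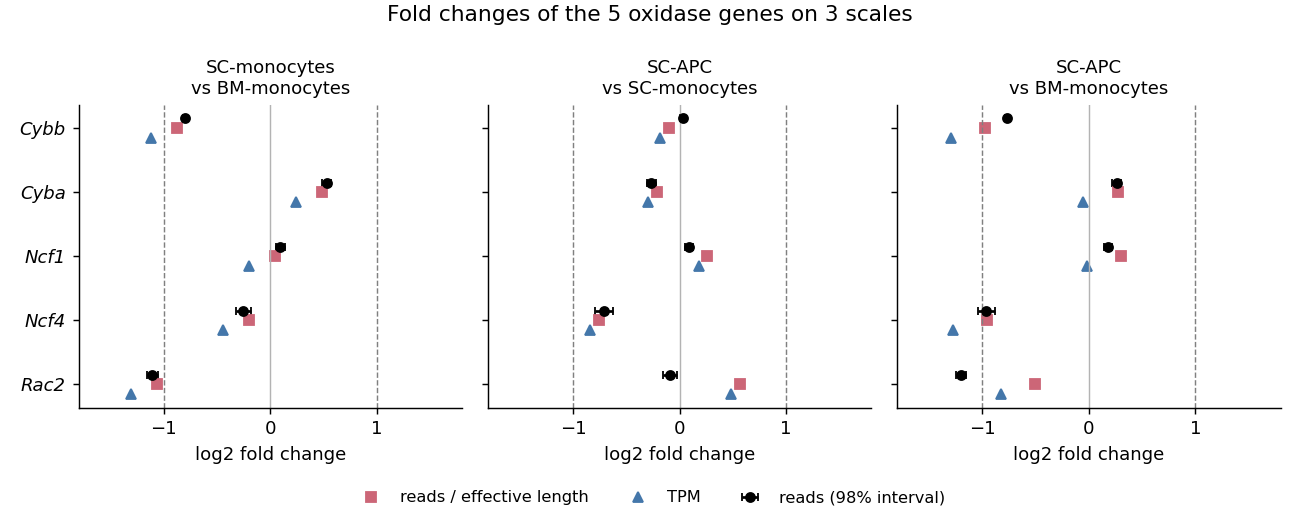
Log2 fold changes of the 5 genes in the 3 comparisons, on reads (points with 98% intervals of counting error), on reads per effective length (squares) and as TPM ratios (triangles); dashed lines mark a 2-fold change. Rac2 lies past the lower line on all 3 scales in SC-monocytes against BM-monocytes, while for SC-APC against SC-monocytes it is at -0.09, 0.56 and 0.48.

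The calls of the 5 genes are given beside those of all active genes. Between BM-monocytes and SC-monocytes 0 of 5 were called higher and 1 of 5, Rac2, lower, where 13.8% of 10072 active genes were called higher and 10.7% lower. Their median log2 fold change was -0.25, beside -0.14 over all active genes. Between SC-monocytes and SC-APC 0 of 5 were called in either direction, where 1.93% of 9734 active genes were called higher and 1.70% lower, and the medians were -0.09 and -0.036. For SC-APC against BM-monocytes 1 of 5, Rac2, was called lower and 0 higher, with backgrounds of 11.8% and 14.0% of 10190 active genes, and the medians were -0.77 and -0.17. The comparisons share libraries, SC-monocytes in both steps and each library in 2 of the 3 pairs, so they are not independent of each other.

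Scaling by total reads instead of size factors moved all genes by -0.18 on the log2 scale in the first step. Taken relative to the median of active genes, the first-step values under the alternatives that kept the TPM threshold near 3 (over 3 or over 4) lay between -0.75 and -0.65 for Cybb, 0.61 and 0.68 for Cyba, 0.17 and 0.25 for Ncf1, -0.16 and -0.052 for Ncf4, and -1.01 and -0.92 for Rac2. Scalings that move all genes by 1 constant cannot change these relative values. With no TPM threshold the median itself became 0.48 (first step) and -0.16 (second step), so values relative to it lie outside these ranges. These medians equal the values of a gene with 0 reads in every library, such as Nox3. They follow from the added read and the scaling, and describe no expression. In the second step, with the threshold, Ncf4 lay between -0.74 and -0.67 on this measure, while Cybb went from -0.08 to 0.07 and Rac2 from -0.06 to 0.58.

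**Figure D4:**
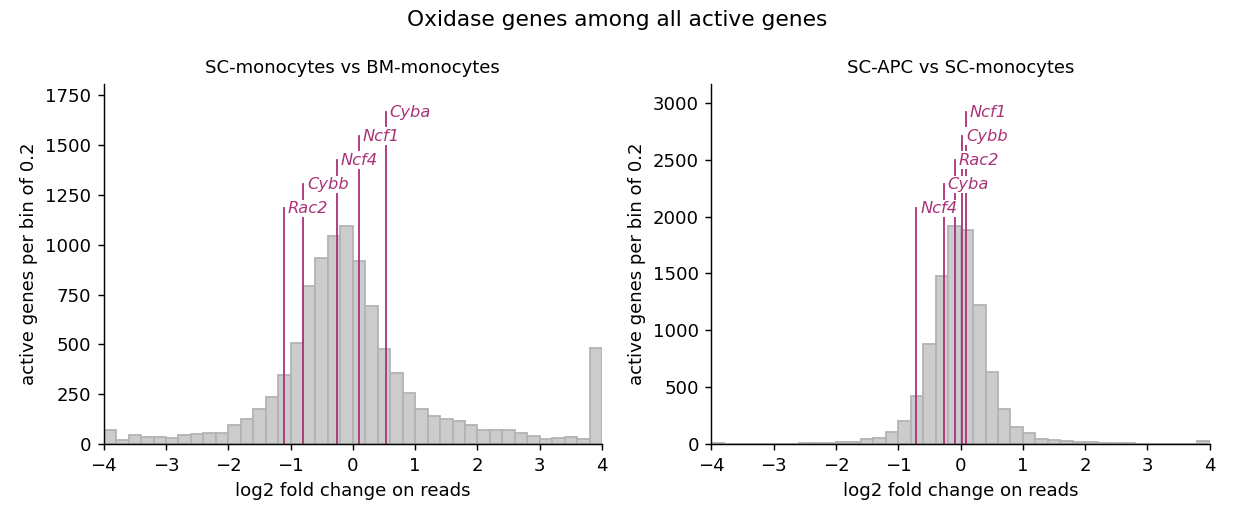
Histograms of the log2 fold change on reads of all active genes in bins of 0.2, for SC-monocytes against BM-monocytes (left) and SC-APC against SC-monocytes (right), with the 5 oxidase genes marked; the outermost bins also hold the genes beyond ±4. In the left panel Rac2 (-1.11) and Cybb (-0.80) lie in the lower flank and Cyba (0.53) in the upper, and in the right panel Ncf4 (-0.71) stands lowest of the 5.

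The summed TPM of the 5 genes was 3907 in BM-monocytes, 2877 in SC-monocytes and 2569.7 in SC-APC. Cybb made up 36.5%, 22.8% and 22.6% of this sum and Cyba 32.1%, 51.5% and 47.1%. Ncf1 held 8.06%, 9.54% and 12.1%, Ncf4 7.39%, 7.38% and 4.62%, and Rac2 15.9%, 8.73% and 13.7%. The larger total in marrow thus lay mostly with Cybb and Rac2, and Cyba alone was the largest item in the cord.

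Genes with the most similar pair of fold changes over the 3 libraries were sought among 10307 active genes, by the distance of the 2 log2 fold changes of the steps. For Cybb these were Rgs19 (at a distance of 0.0158), Gcfc2 and Gtf3a, and for Cyba Elf2 (0.0139), Josd2 and Pip5k1a. Stx8 (0.00405), Mrps33 and Usp40 lay nearest to Ncf1, and Tfam (0.0150), Ccdc77 and Vars nearest to Rac2. Ncf4 had the fewest neighbours, with 19 genes within a distance of 0.1, and its nearest were Ttpal (0.0259), Commd2 and Pstpip2. Ncf1, with little difference in either step, had 143 such genes, Cybb 122, Cyba 72 and Rac2 52. With 3 libraries this likeness rests on 2 numbers per gene. It is a likeness on reads and need not hold on TPM. The 3 genes nearest to Ncf1 had lower TPM in SC-APC than in SC-monocytes (Stx8 36.7 and 12.9), whereas Ncf1 had higher (275 and 311).

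Among 8 other parts and close partners of the complex, Hvcn1 and Prdx6 rose and Arhgdib fell between BM-monocytes and SC-monocytes. For this list and those that follow, 13.8% of all active genes were called higher and 10.7% lower in the first step (median -0.145). In the second step these shares were 1.93% and 1.70%, so a list with no calls lay near them. For SC-APC against BM-monocytes they were 14.0% and 11.8%. Hvcn1, the proton channel that balances the charge moved by the oxidase, went from 16.9 to 83.7 TPM and stood at 158 TPM in SC-APC, with a log2 fold change of 2.58 (2.46 to 2.71) in the first step. Prdx6, a peroxiredoxin that binds the oxidase and removes peroxides, stood at 314, 780.5 and 441 TPM, with 1.63 in the first step. Arhgdib, which holds Rac in the cytosol, fell by 1.11 on the log2 scale, from 2495 TPM in BM-monocytes to 945 TPM in SC-monocytes, and stood at 902 TPM in SC-APC. The remaining 5 were not called, and the median of the 8 was -0.41. They include Cybc1, the chaperone of gp91phox, at 106, 62.8 and 48.3 TPM, and Rap1a, a GTPase found with the membrane pair, at 272, 167 and 149 TPM. None of the 8 was called in the second step. Nrros, which limits the amount of gp91phox, was called for SC-APC against BM-monocytes, where it fell by 1.19 on the log2 scale, from 157 to 54.8 TPM.

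The other NADPH oxidases and their organizers and maturation factors (Nox1, Nox3, Nox4, Noxo1, Noxa1, Duox1, Duox2, Duoxa1 and Duoxa2) were nearly absent. None of the 9 reached 3 TPM in any library, and together they summed to 0.570, 2.32 and 0.540 TPM. At 3 reads or fewer were 7, 7 and 8 of them. No catalytic subunit of the family other than Cybb reached 3 TPM in these libraries.

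Among receptors that trigger the burst, 7 of 12 rose between BM-monocytes and SC-monocytes and 0 fell, with a median of 1.75. Over all active genes 13.8% were called higher and 10.7% lower, with a median of -0.145. Clec7a (dectin-1, a receptor for fungal glucan) rose by 2.73 on the log2 scale, from 496 to 2778 TPM, and stood at 2812 TPM in SC-APC. The Fc receptors Fcgr4 (46.1 to 487 TPM, 3.72), Fcgr2b (156 to 1089 TPM, 3.02), Fcgr1 (1.92) and Fcgr3 (1.58), the complement receptor C5ar1 (2.03) and the platelet-activating factor receptor Ptafr (2.25) also rose. Fcgr1 encodes CD64, on which both cord populations were gated and BM-monocytes were not, so its difference and the sort cannot be told apart. Fcgr2b is the inhibitory receptor of the family. In the second step 0 of 12 were called, and Itgb2, the shared chain of the leukocyte integrins, rose by 1.14 in SC-APC against BM-monocytes.

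Of 18 active kinases, lipid enzymes and exchange factors upstream of assembly, 0 rose and 3 fell in SC-monocytes, with a median of -0.55. Those 3 were the protein kinase C gene Prkcb (123 to 37.5 TPM, -1.40), the Rac exchange factor Dock2 (138 to 51.2 TPM, -1.12) and the p38 kinase Mapk14 (211 to 64.4 TPM, -1.47). Prkcd, the other abundant protein kinase C of the list, stood at 335, 566 and 267 TPM and was not called in either step. In the second step 0 were called. All active genes gave 13.8% called higher and 10.7% lower in the first step (median -0.145), and 1.93% and 1.70% in the second. Against BM-monocytes, SC-APC also had lower Pik3cd (-1.52) and Vav3 (-1.48).

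Among enzymes that supply NADPH, the fuel of the oxidase, G6pdx and Idh1 fell. Of 9 active genes of this list 0 rose and 2 fell in SC-monocytes, with a median of -0.78. Over all active genes the shares were 13.8% and 10.7%, and the median was -0.145. G6pdx, the first enzyme of the pentose phosphate pathway, went from 363 to 77.5 TPM (-1.82) and Idh1, the cytosolic isocitrate dehydrogenase, from 353 to 44.7 TPM (-2.67), and they stood at 71.9 and 52.0 TPM in SC-APC. Pgd, Taldo1 and Tkt, the most abundant of the list, had values of -0.78, -0.73 and -0.40 without a call. In SC-APC against BM-monocytes Rpia joined them, with -1.32.

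Genes that remove superoxide and peroxide split in both directions. Of 13 active genes 5 rose and 3 fell between BM-monocytes and SC-monocytes, with a median of 0.06. The shares over all active genes were 13.8% higher and 10.7% lower, with a median of -0.145. Sod2, the mitochondrial superoxide dismutase, rose by 2.97 on the log2 scale, from 2392 to 13459 reads, while Sod1, the cytosolic one, fell by 1.22, from 955 to 295 TPM. Prdx5 (1800 to 4273 TPM), Prdx6, Txn1 and Txnrd1 rose by 1.35 to 1.75, and Cat (-1.13) and Prdx4 (-1.23) fell. In SC-APC Sod2 had 11093 reads but 98.7 TPM against 604 TPM in SC-monocytes, with an effective length of 5394 bases there against 1150, and no direction is given for it between those libraries. Against BM-monocytes, SC-APC was called lower for Sod1, Gpx1 (-1.07) and Prdx3 (-1.29) and higher for Sod2 and Txnrd1. Prdx5, Prdx6, Txn1, Cat and Prdx4 were not called in that comparison.

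Of 2 active genes for other oxidant enzymes of phagocytes, 1 rose and 1 fell. Nos2, the inducible nitric oxide synthase, went from 8 reads in BM-monocytes to 20683 in SC-monocytes and 20867 in SC-APC, or 0.0952, 276 and 254 TPM, and its first-step value was 11.70 (10.70 to 13.01) on the log2 scale. Mpo, the myeloperoxidase of granulocyte and monocyte precursors, fell by 5.0 on the log2 scale, from 69.6 to 1.85 TPM, and stood at 1.27 TPM in SC-APC. Epx and Lpo did not reach 3 TPM.

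Of 6 transcription factors known at oxidase genes, Irf1 (90.5 to 649.8 TPM, 3.01) and Cebpb (252 to 949 TPM, 2.23) rose in SC-monocytes and Cebpe (14.4 to 3.96 TPM, -1.54) fell. Spi1, which encodes PU.1, stood at 583, 448 and 446 TPM and Irf8 at 222, 227 and 176 TPM, and neither was called. None of the 6 was called in the second step. Shares over all active genes were 13.8% higher and 10.7% lower in the first step, and 1.93% and 1.70% in the second.

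**Figure D5:**
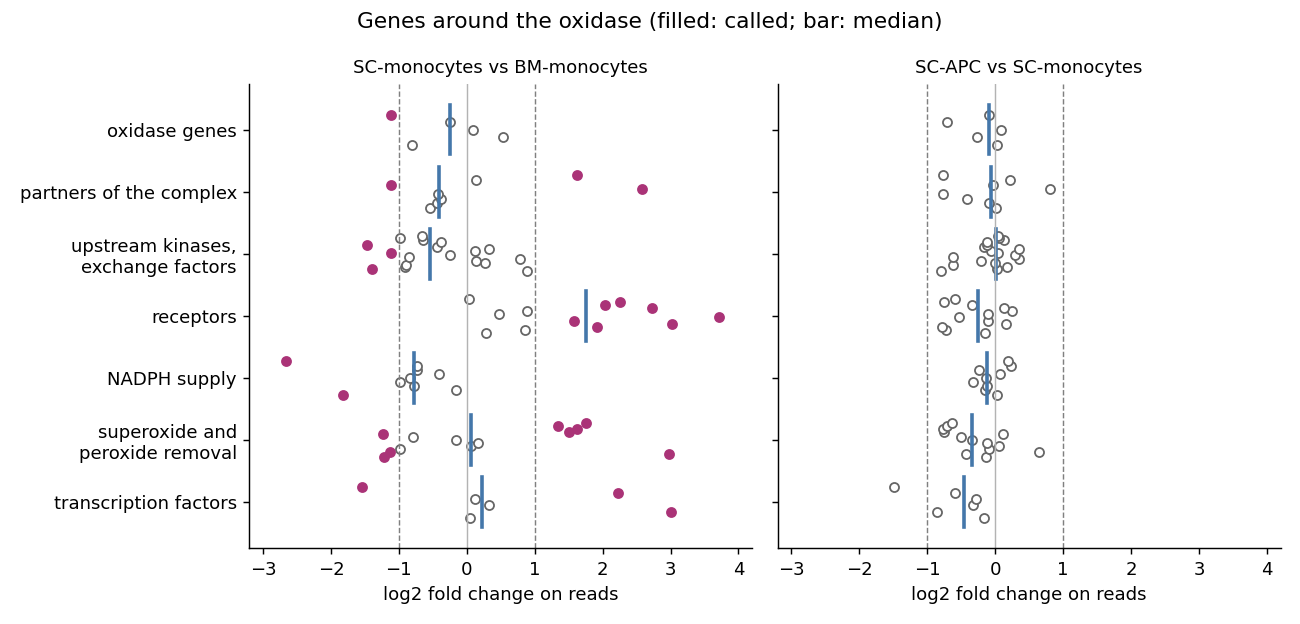
Log2 fold change on reads of each active gene in 7 lists, for SC-monocytes against BM-monocytes (left) and SC-APC against SC-monocytes (right); filled points are called genes, blue bars are list medians, dashed lines mark a 2-fold change, and a gene in more than 1 list (Prdx6) is drawn in each. Receptors have 7 filled points to the right on the left panel, NADPH supply has 2 to the left, and the right panel holds none.

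Markers of other cells moved beside these results. The 8 markers of neutrophils, which also carry the oxidase, summed to 1252, 219 and 421 TPM in BM-monocytes, SC-monocytes and SC-APC, with all 8 above 3 reads in each, and 7 precursor markers to 655, 79.1 and 65.9 TPM. Both sums were highest in marrow, as were Cybb, Ncf4 and Rac2, but the members of these lists did not all follow their sum. Mmp8 (707, 119 and 138 TPM) and Cd177 (254, 32.5 and 9.03 TPM) made up most of the neutrophil sum in marrow, whereas Retnlg (1.77, 16.7 and 57.9 TPM) and Cxcr2 (2.56, 9.10 and 6.75 TPM) rose in SC-monocytes, and Ltf was highest in SC-APC (27.6, 9.76 and 34.1 TPM). Ngp stood at 186, 24.3 and 157 TPM. Among precursor markers Cd34 (3.03, 12.5 and 35.7 TPM) rose in SC-monocytes and Kit (0.208, 1.70 and 6.92 TPM) rose in SC-APC, while Elane, Prtn3, Mpo, Ctsg and Ms4a3 fell in SC-monocytes. Ly6g, the marker gated out, had 38, 22 and 24 reads. The 8 microglial markers summed to 13.8, 147 and 391 TPM, with Sall1 and Slc2a5 at 0 reads in BM-monocytes, and this sum was highest in SC-APC, where Ncf4 was lowest. T and NK cell markers summed to 4.37, 45.5 and 65.6 TPM over 7 genes, neural and endothelial markers to 84.8, 74.1 and 58.3 TPM over 8, and B and plasma cell markers to 0.835, 1.03 and 0.607 TPM over 5. The 9 markers of monocytes and their progeny summed to 8397, 8165 and 9674 TPM, with 7, 9 and 9 of them over 3 TPM. Itgam (CD11b), Ly6c2 (Ly6C) and, in the cord, Fcgr1 (CD64) were sort markers, so this sum is no independent check of cell identity. Its members did not move together. In SC-APC against SC-monocytes Itgax and H2-Ab1 were called higher and Ly6c2 and Ccr2 lower. The part of the other cells in the oxidase values was not tested.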

How the data were processed

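The authors estimated expression per gene with SALMON and deposited 1 table per library. The deposited TPM values already carry the authors' correction for length and depth, the deposited estimated counts of reads (NumReads) were not normalized and hold fractions of reads, and the deposited effective lengths were used to correct reads for length. The methods name the GENCODE vM22 annotation, and the submitters' processing notes name Salmon 0.14.1 and mm10. SC-APC was quantified against a different set of transcripts, whose make-up is not given in the sources used here.

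The 22238 genes common to the 3 libraries were kept (84.9%, 85.3% and nearly all of deposited TPM in BM-monocytes, SC-monocytes and SC-APC), TPM was rescaled over them and counts were rounded to whole reads (32115707, 26116588 and 28209327). The size factors, medians of ratios over the 3 libraries, were 1.21, 0.864 and 0.963. Following the GFold definition named in the methods, which was computed anew, the log2 ratio was given a gamma posterior of the reads plus 1, and a gene was called where percentile 1 or 99 lay beyond a 2-fold change and TPM was over 3 in 1 library. The methods give their activity threshold as a log2 value, which is 4 TPM as printed. A value of 1 was added before the log here, which gives 3 TPM and which they do not mention, and TPM over 4 was an alternative. The script was tested on simulated data. GENCODE M21 (GRCm38) gave symbols, places and transcripts, and 99.0% of common genes had the same version in it. Python 3.11.15, numpy 2.4.6, scipy 1.17.1, pandas 2.3.3 and matplotlib 3.10.9 were used, and edgeR 4.0.16 in R 4.3.3 gave TMM factors for an alternative only.

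The 5 genes and all gene lists were chosen with earlier results of these data known. Genes were named by rule: the 5 members, of each list all called genes and the 4 highest by TPM, markers at 3 reads or fewer, and the 3 nearest genes of each member. Not every gene that the rule admits is named, and Ly6g was named outside it, as the marker gated out. Alternatives changed the scaling, length correction, thresholds, assumed spread, added reads, measure and gene set. Protein sequences were not used here, and some genes of the lists are not reported.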

Additional observations from a re-analysis of the deposited data

How the results depend on the processing

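With 1 library per population, the spread between animals, sorts or preparations was not measured. Depth limited calls of genes with few reads, as for Cebpe between SC-monocytes and SC-APC (74 and 29 reads, 98% interval -2.25 to -0.78). No paired analysis was possible because each population has 1 library. Of 200 member fold changes under the alternatives, 171 kept their direction and side of the 2-fold threshold, 14 changed sign, 8 passed it anew and 7 no longer passed. Many of the 171 could not have changed. Other TPM thresholds left every member's value and call as they were, since all members lay far above them. Adding fewer reads moved the values hardly at all at these read counts. An assumed coefficient of variation only widened the interval, so it could not change a direction. The count of 171 is therefore no measure of how stable the values are.

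The count of members called between BM-monocytes and SC-monocytes, 1, became 0 with an assumed coefficient of variation of 0.2 or 0.4 between libraries, and 2 (Cybb and Rac2) with TPM ratios (pseudocounts 1 and 0.1) and with all genes of the monocyte libraries. For SC-APC against BM-monocytes the count of 1 became 0 per effective length and with either coefficient of variation, 2 (Ncf4 and Rac2) with total reads and 2 (Cybb and Ncf4) with both TPM ratios. It was 0 for SC-APC against SC-monocytes under every alternative run.

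Sign changes on the log2 scale were these. In the first step Ncf1 (0.095) became -0.088 with total reads, -0.20 with both TPM ratios and -0.15 with all monocyte genes. In the second step Cybb (0.029) became -0.098 per effective length and -0.18 with both TPM ratios, and Rac2 (-0.09) became 0.56 per effective length and 0.48 with both TPM ratios. For SC-APC against BM-monocytes, Cyba (0.26) became -0.054 and Ncf1 (0.18) -0.019 with TPM ratios. The effective lengths come from different transcript sets, which enter the TPM and length settings by construction.

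As deposited, without rescaling, the TPM of Cybb, Cyba, Ncf1, Ncf4 and Rac2 was 1211, 1067, 268, 245 and 528 in BM-monocytes and 560.2, 1264, 234, 181 and 214 in SC-monocytes. Ratios of reads in place of TPM were 0.112, 0.281 and 0.229 for Cyba to Cybb, 2.49, 3.17 and 5.50 for Ncf1 to Ncf4, and 0.765, 0.517 and 0.483 for Rac2 to Rac1 in the order BM-monocytes, SC-monocytes, SC-APC.

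Over all genes, 1386 were called higher and 1073 lower in the first step, and these counts were 913 and 447 at a coefficient of variation of 0.2, 623 and 220 at 0.4, 1315 and 1890 with TPM ratios (pseudocount 1; 1391 and 2137 at 0.1), and 2623 higher with no TPM threshold. In the second step 188 and 165 became 232 and 320 per effective length, 83 and 35 or 42 and 14 at the coefficients of variation, 326 and 302 with a plain 2-fold change, 274 and 528 or 351 and 617 with TPM ratios, and 385 and 292 with no threshold. For SC-APC against BM-monocytes 1426 and 1199 became 970 and 495 or 717 and 225 at the coefficients of variation. They became 1315 and 2433 or 1381 and 2682 with TPM ratios, and 2870 and 1333 with no threshold.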
